A study of Homo sapiens with 6 samples.

Results

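The BCL2 family, the caspases and the inhibitor of apoptosis (IAP) genes form the core machinery of programmed cell death. Of these and their partners, 36 were followed here among 20345 genes. The members are the rows of the table whose symbol is one of 36 listed names, a list drawn up with earlier results of these data known, and all 36 were found. They fall into 4 anti-apoptotic BCL2 genes, 2 other BCL2-like genes, 3 pore-forming effector genes, 8 BH3-only genes, 7 caspases, 5 genes of the apoptosome or of proteins released from mitochondria, 4 IAP genes and 3 genes of the death receptor complex. RNA came from HEK 293FT, a human embryonic kidney line that carries adenovirus early genes and the SV40 large T antigen, in 3 libraries of cells titled HEK 293FTGFP and marked Vec (GFP cells) and 3 libraries of cells titled HEK 293FTGFP-CTRB1 (CTRB1 cells). Both groups carry GFP, the green fluorescent protein, by their titles, and the CTRB1 cells also carry CTRB1, which encodes chymotrypsinogen B1, the precursor of a secreted digestive protease. The labels name no promoter, no clone, no treatment and no time point, and they do not say whether the libraries of a group came from separate cultures. A p-value here therefore reflects the spread among these 6 libraries and no more, and that spread may be technical. In bulk RNA of this kind, fewer cells of a type and less RNA per cell cannot be told apart.

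In the mitochondrial pathway of apoptosis, BH3-only proteins sense damage and stress and bind anti-apoptotic BCL2 proteins, and the effectors BAX and BAK1 then open the outer mitochondrial membrane. Cytochrome c that leaves the mitochondrion assembles APAF1 and caspase-9 into the apoptosome, which starts a cascade of proteases that the IAP protein XIAP restrains. In the second pathway, death receptors gather FADD, caspase-8 and RIPK1, and CFLAR blocks that complex. Much of this control acts on proteins, by binding, cleavage and degradation, and transcript levels do not show it. The adenovirus genes of HEK293 lines include a viral BCL2 homologue, and large T antigen binds p53, the transcription factor that drives several BH3-only genes in other cells.

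The libraries held 27514767 to 159616285 counts, and each GFP library was deeper than each CTRB1 library, so depth and group cannot be told apart. With counts thinned to the smallest total, the test called the same 12 members as the full counts did. CTRB1 had 1, 0 and 5 counts in GFP cells and 19345 to 22749 in CTRB1 cells, as the labels say. Of 8 markers of HEK293 cells in the table, 7 were expressed, with a summed level of 968 to 992 CPM in GFP cells and 879 to 925 CPM in CTRB1 cells. Most of that sum was VIM, with means of 774 and 693 CPM. The markers did not move together: VIM and INA were called lower, NEFM and PAX2 higher, and CDH2, KRT8 and KRT18 were not called. Of 5 markers of pancreatic acinar cells, 4 had no count in any library. The 5 fibroblast markers summed to 32.3 to 33.5 CPM in GFP cells and 33.0 to 41.2 CPM in CTRB1 cells. Nearly all of that was COL1A1, with means of 32.0 and 37.5 CPM, which was called higher. COL1A2, DCN, LUM and PDGFRB had at most 0.765 CPM in any library. The blood and endothelial markers summed to at most 5.79 and 1.24 CPM in any library. The part of these markers in the results was not tested. CPM are counts scaled to library size, here adjusted with the trimmed mean of M values (TMM).

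HRK and BBC3, which encode pro-apoptotic BH3-only proteins, rose most in CTRB1 cells, while MCL1, the most abundant anti-apoptotic gene, and BAK1, a pore-forming effector, fell. Of the 36 members, 31 passed the expression filter (FPKM, fragments scaled to transcript length and library size, of at least 1 in at least 3 libraries). Of those, 6 were higher and 6 were lower in CTRB1 cells (quasi-likelihood test of edgeR, adjusted p under 0.05), and 19 were not called. By limma on log2(FPKM + 1), 4 members were higher and 6 lower. The 12 calls are 38.7% of the tested members, against 37.4% of all 11961 genes tested. By edgeR on all 6 libraries the members were thus called about as often as other genes. That depends on the setting. Without CTRB1 replicate 2, 17 of the 31 members and 4266 of the 11961 genes were called. At a mean FPKM of at least 5 it was 10 of 26 members and 3911 of 8821 genes. In the main edgeR test, 18.6% of all genes were higher and 18.9% lower, 2221 and 2258 genes. By limma on log2(FPKM + 1) the calls over all genes split into 1250 higher and 1942 lower instead. The median log2 change of the tested members was 0.05, against 0.00325 over all genes, and the median size of a change was 0.0864 against 0.108. The groups did not overlap in CPM for 16 of the 31 members, against 50% of all genes tested. CTRB1 cells were above for 8 of them and below for 8, against 25% of all genes each way. A change of more than 0.5 on the log2 scale was seen in 2 members, HRK and BBC3, and in 2.79% of all genes. The plot of changes by role shows calls in both directions among the BH3-only genes, and none among XIAP, BIRC2 and BIRC6 or among APAF1, DIABLO, HTRA2, AIFM1 and ENDOG.

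**Figure D1:**
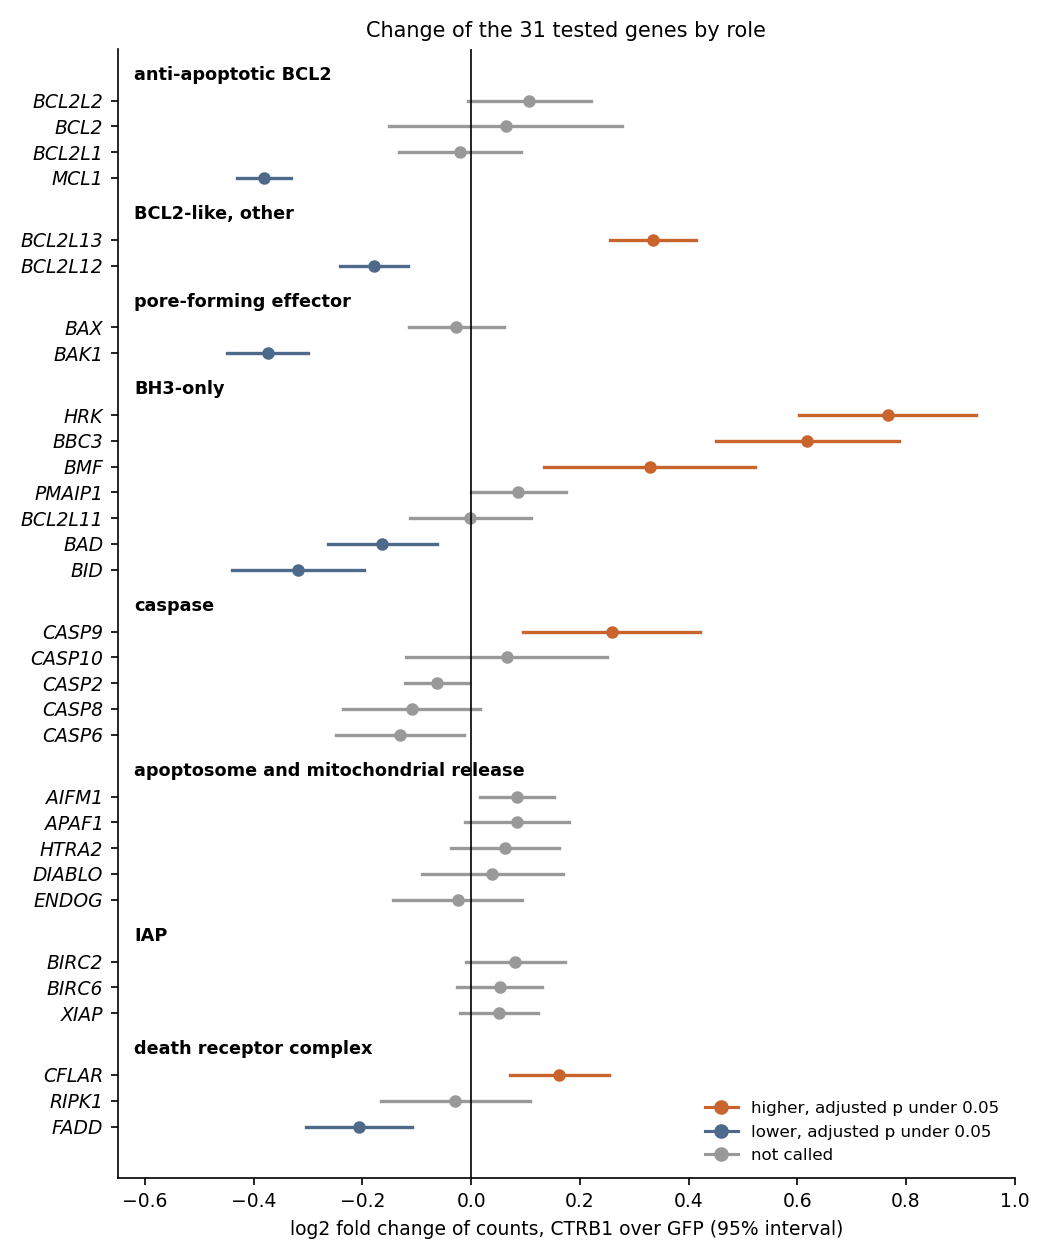
Log2 fold change of counts, CTRB1 over GFP cells, for the 31 tested genes, grouped by role; points are edgeR estimates from 3 against 3 libraries and lines are 95% intervals. HRK at 0.77 and BBC3 at 0.62 lie farthest to the right, and MCL1 at -0.38 and BAK1 at -0.37 farthest to the left.

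Among the anti-apoptotic genes, MCL1 was lower in CTRB1 cells, and BCL2, BCL2L1 and BCL2L2 were not called. MCL1 encodes a short-lived protein that holds BAK1 and several BH3-only proteins in check. MCL1 (ENSG00000143384; 150547032 to 150552066 on chromosome 1 by the deposited coordinates, whose build is not named) had 359, 358 and 362 CPM in GFP cells and 278, 271 and 279.9 CPM in CTRB1 cells. The groups were far apart, and the libraries of each group lay close together. The log2 change was -0.38 ± 0.0226 (SE, n = 3 each), 1.30-fold lower, with an edgeR adjusted p of 8.36e-07. BCL2L1, the gene of BCL-XL, had 27.2 to 28.6 CPM in GFP cells and 26.2 to 28.7 CPM in CTRB1 cells, a log2 change of -0.02 with a 95% interval of -0.13 to 0.09. The antisense gene ABALON covers 43.0% of the exon bases of BCL2L1, and its part in these values was not tested. BCL2L2, the gene of BCL-W, had a log2 change of 0.11 (95% interval -0.01 to 0.22; edgeR adjusted p = 0.125). Without CTRB1 replicate 3 it was 0.16, and the gene was called higher (edgeR adjusted p = 0.0172). Without CTRB1 replicate 2 it was 0.076, and the gene was not called (edgeR adjusted p = 0.295). BCL2L2 shares 19.4% of its exon bases with the readthrough gene BCL2L2-PABPN1, so its reads may not be fully separated. BCL2, the founding member of the family, was sparse in both groups, with 6.90 to 8.25 CPM in GFP cells and 7.53 to 8.24 CPM in CTRB1 cells. Its log2 change of 0.06 has a 95% interval of -0.15 to 0.28, wide enough to hold changes as large as some that were called elsewhere in the family.

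By FPKM, which is scaled to transcript length, MCL1 outweighed the other 3 anti-apoptotic genes together. It made up 79.1%, 78.8% and 78.8% of their summed FPKM in GFP cells and 73.9%, 72.6% and 73.7% in CTRB1 cells. BCL2L1 took 10.1 ± 0.223% in GFP cells and 12.2 ± 0.709% in CTRB1 cells, BCL2L2 took 10.1 ± 0.287% and 13.2 ± 0.987%, and BCL2 took 0.96 ± 0.06% and 1.21 ± 0.106% (SD, n = 3 each). The smaller share of MCL1 in CTRB1 cells thus came with larger shares of the other 3, none of which was called. The summed FPKM of the 4 genes was 105 to 107 in GFP cells and 84.2 to 85.8 in CTRB1 cells. That difference of 20.9 FPKM is close to the 21.2 FPKM by which MCL1 alone differed.

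The remaining BCL2-like genes moved in opposite directions. BCL2L13 encodes BCL-Rambo, a protein of the outer mitochondrial membrane that also serves as a receptor in mitophagy. It had 57.3, 56.2 and 58.1 CPM in GFP cells and 75.4, 70.0 and 71.0 CPM in CTRB1 cells. Every CTRB1 library was above every GFP library, with a log2 change of 0.33 ± 0.0356 (SE, n = 3 each) and an edgeR adjusted p of 5.34e-05. BCL2L12, the gene of a proline-rich BCL2-related protein, had 75.1, 73.7 and 72.8 CPM against 65.4, 65.3 and 65.0 CPM in CTRB1 cells. Its log2 change was -0.18 ± 0.0284 (SE, n = 3 each; edgeR adjusted p = 0.000722). Exons of IRF3 on the opposite strand cover 33.1% of the exon bases of BCL2L12. IRF3 itself had a log2 change of -0.04 ± 0.0438 (SE) and an adjusted p of 0.496 by edgeR, and its part in the change of BCL2L12 was not tested.

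Of the pore-forming effectors, BAK1 fell and BAX was not called. BAK1 sits in the outer mitochondrial membrane of healthy cells, while BAX waits in the cytosol. BAK1 (ENSG00000030110; 33540329 to 33548019 on chromosome 6 by the deposited coordinates) had 66.6, 65.6 and 64.6 CPM in GFP cells and 51.8, 50.6 and 49.2 CPM in CTRB1 cells. The lowest GFP library stood well above the highest CTRB1 library, and the log2 change was -0.37 ± 0.034 (SE, n = 3 each), 1.30-fold lower (edgeR adjusted p = 1.89e-05). BAX had 101, 100.1 and 99.1 CPM in GFP cells and 93.9, 105 and 95.01 CPM in CTRB1 cells. The second CTRB1 library was the highest of all 6 and the other 2 were the lowest, so the groups overlapped. The log2 change of BAX was -0.03 (95% interval -0.11 to 0.06; edgeR adjusted p = 0.616). Without CTRB1 replicate 2 it was -0.08, and BAX was called lower (edgeR adjusted p = 0.0352). Without CTRB1 replicate 1 it was 0.00489, and BAX was not called (edgeR adjusted p = 0.933). BAX made up 72.8 ± 0.69% of the summed effector FPKM in GFP cells and 77.4 ± 1.52% in CTRB1 cells (SD, n = 3 each). BOK, the third effector gene, did not pass the filter, with 2.44 to 2.66 CPM in GFP cells and 1.75 to 3.33 CPM in CTRB1 cells.

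The BH3-only genes HRK and BBC3 had the largest rises among the 31 tested members, while BID and BAD fell. Of 8 members, 3 were higher, 2 were lower, 2 were not called and BIK did not pass the filter; over all genes tested, 18.6% were higher and 18.9% lower. HRK, named harakiri, encodes a small protein that binds BCL-XL and is known best from neurons. HRK (ENSG00000135116; 117293949 to 117319246 on chromosome 12 by the deposited coordinates) had 11.1, 10.5 and 10.7 CPM in GFP cells and 19.3, 17.9 and 17.6 CPM in CTRB1 cells. No library of one group came near the other group, and HRK rose 1.70-fold, a log2 change of 0.77 ± 0.074 (SE, n = 3 each) and an adjusted p of 2.84e-05 by edgeR. BBC3 encodes PUMA, which binds all anti-apoptotic BCL2 proteins and is a p53 target in other cells. BBC3 (ENSG00000105327; 47724081 to 47736023 on chromosome 19 by the deposited coordinates) had 8.89, 9.19 and 9.53 CPM in GFP cells and 13.9, 14.6 and 13.9 CPM in CTRB1 cells. The groups did not overlap, and BBC3 rose 1.54-fold, a log2 change of 0.62 ± 0.0765 (SE, n = 3 each) and an adjusted p of 0.00015 by edgeR.

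The sequences before the starts of HRK and BBC3, the genes that rose most, and of BAK1, the effector gene that fell, are shown because they can be searched for the letters that stress-responsive factors bind. They are the 250 bases upstream of a start in the RefSeq annotation of GRCh38.p14, read 5′ to 3′ on the strand of the gene. For each gene 1 window is shown, the first listed where there are several. Capitals mark the core of the element bound by ATF4 with C/EBP proteins (TGATGNAA), the core of the cyclic AMP element (TGACGT) and the core of the heat shock element (GAANNTTC), searched on both strands. No window shown held more than 1 match of the marked motifs, so none overlap.
HRK, chr12:116881442-116881691, minus strand: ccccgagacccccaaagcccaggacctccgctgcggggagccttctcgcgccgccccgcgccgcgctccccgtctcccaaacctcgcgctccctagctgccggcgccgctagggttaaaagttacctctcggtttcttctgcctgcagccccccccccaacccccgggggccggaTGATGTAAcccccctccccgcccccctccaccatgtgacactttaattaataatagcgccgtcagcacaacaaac
BBC3, chr19:47232668-47232917, minus strand: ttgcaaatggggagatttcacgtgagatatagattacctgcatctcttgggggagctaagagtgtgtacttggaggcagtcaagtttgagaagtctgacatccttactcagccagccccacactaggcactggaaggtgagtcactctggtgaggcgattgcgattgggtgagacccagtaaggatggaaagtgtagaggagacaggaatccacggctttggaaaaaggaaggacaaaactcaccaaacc
BAK1, chr6:33580277-33580526, minus strand: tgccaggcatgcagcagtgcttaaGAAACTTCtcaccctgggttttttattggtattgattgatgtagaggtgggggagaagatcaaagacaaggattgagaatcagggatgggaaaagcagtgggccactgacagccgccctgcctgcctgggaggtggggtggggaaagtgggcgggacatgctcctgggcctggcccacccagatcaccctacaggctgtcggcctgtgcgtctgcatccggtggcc
The window shown for HRK held TGATGTAA and that for BAK1 held GAAACTTC, while that for BBC3 held none of the 3. Promoter windows were found for 31 of the 36 members, 58 windows in all, since some genes have several starts. MCL1, BCL2L2, BIK, CASP1 and CASP10 had none. TGATGNAA was in 1.72% of the members' windows, that of HRK, and in 3.14% of all 35116 windows. GAANNTTC was in 8.62% of the members' windows, those of BAK1, BMF, CASP2, CASP8 and CFLAR, and in 5.78% of all. TGACGT was in 8.62% of the members' windows, those of BAD, BIRC2 and PMAIP1, and in 7.1% of all. The GC box GGGCGG, not marked above, was in 63.8% of the members' windows and in 42.6% of all. Counted by gene, GAANNTTC was in 16.1% of the 31 members and in 7.05% of all 27305 genes with a window. The GC box was in 80.6% and 46.2%, TGATGNAA in 3.23% and 3.89%, and TGACGT in 9.68% and 8.62%. Members had more windows per gene (58 for 31) than all genes had (35116 for 27305). A member thus had more chances of holding a match, and the shares by gene are not like for like. Such a match is a run of letters and not a measured binding site.

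BMF, which encodes a BH3-only protein held at the cytoskeleton, rose by counts but not by FPKM. It had 8.37, 9.47 and 9.64 CPM in GFP cells and 11.0, 11.5 and 12.1 CPM in CTRB1 cells, a log2 change of 0.33 ± 0.0877 (SE, n = 3 each) and an adjusted p of 0.0133 by edgeR. Its FPKM was 2.16, 3.00 and 2.26 in GFP cells and 2.00, 2.46 and 3.12 in CTRB1 cells, so by that unit the groups overlapped. With limma on log2(FPKM + 1) the difference was 0.02 (limma adjusted p = 0.929). The call was also lost without GFP replicate 1, at a log2 change of 0.27 (edgeR adjusted p = 0.0562). The antisense gene BMF-AS1 covers 8.46% of the exon bases of BMF. Across the 31 tested members, BMF was the single gene whose log2 change differed by more than 0.2 between counts and FPKM, as it did for 2.07% of all genes tested, and the next largest gap was 0.14, for CASP8.

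BID and BAD were lower. BID links the death receptor pathway to mitochondria, since caspase-8 cleaves it into its active form. BID had 34.1, 34.9 and 36.02 CPM in GFP cells and 26.7, 27.4 and 30.3 CPM in CTRB1 cells, a log2 change of -0.32 ± 0.0552 (SE, n = 3 each) and an adjusted p of 0.00121 by edgeR. The third CTRB1 library lay nearest to the GFP libraries without reaching them. BAD, whose protein survival kinases silence by phosphorylation, had 37.7, 38.3 and 39.8 CPM against 34.9, 35.3 and 33.3 CPM, a log2 change of -0.16 ± 0.0454 (SE, n = 3 each) and an adjusted p of 0.0158 by edgeR. The call was lost without GFP replicate 3 (log2 change -0.14; edgeR adjusted p = 0.0774). Exons of GPR137 on the opposite strand cover 23.7% of the exon bases of BAD. GPR137 had a log2 change of -0.16 ± 0.0475 as well (SE) and an adjusted p of 0.0228 by edgeR, and whether the values of BAD and GPR137 share reads was not tested.

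PMAIP1 and BCL2L11 were not called. PMAIP1 encodes NOXA, which binds MCL1 above all, and it was the most abundant BH3-only gene by FPKM. It had 187, 192 and 192 CPM in GFP cells and 188, 203 and 214 CPM in CTRB1 cells, with the first CTRB1 library inside the range of the GFP libraries. Its log2 change was 0.09 (95% interval -0.000934 to 0.17, edgeR adjusted p = 0.11). Without CTRB1 replicate 1 it was 0.14 and called higher (edgeR adjusted p = 0.00562). Without CTRB1 replicate 3 it was 0.042 and not called (edgeR adjusted p = 0.372). BCL2L11, the gene of BIM, had a log2 change of -0.0016 (95% interval -0.11 to 0.11; edgeR adjusted p = 0.983). BIK had 40, 43 and 84 counts in GFP cells and 13, 33 and 21 counts in CTRB1 cells, 0.412 to 1.02 CPM over all 6 libraries. The genes that rose were minor by FPKM: HRK took 1.08 ± 0.0289% of the summed BH3-only FPKM in GFP cells and 1.85 ± 0.176% in CTRB1 cells, and BBC3 took 3.02 ± 0.0321% and 4.55 ± 0.294% (SD, n = 3 each). PMAIP1 took 56.6 ± 0.138% and 59.3 ± 1.06%, and BAD took 23.8 ± 0.471% and 20.9 ± 0.995% (SD, n = 3 each). The summed FPKM of the 8 genes was 150.2 to 154 in GFP cells and 147 to 158 in CTRB1 cells, overlapping ranges. In the plot of FPKM by library, the BH3-only genes called higher are the 3 with the lowest FPKM of the 7 tested in GFP cells. In CTRB1 cells BBC3 lay above BCL2L11, at 6.94 ± 0.28 against 6.08 ± 0.243 FPKM (SD, n = 3 each).

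**Figure D2:**
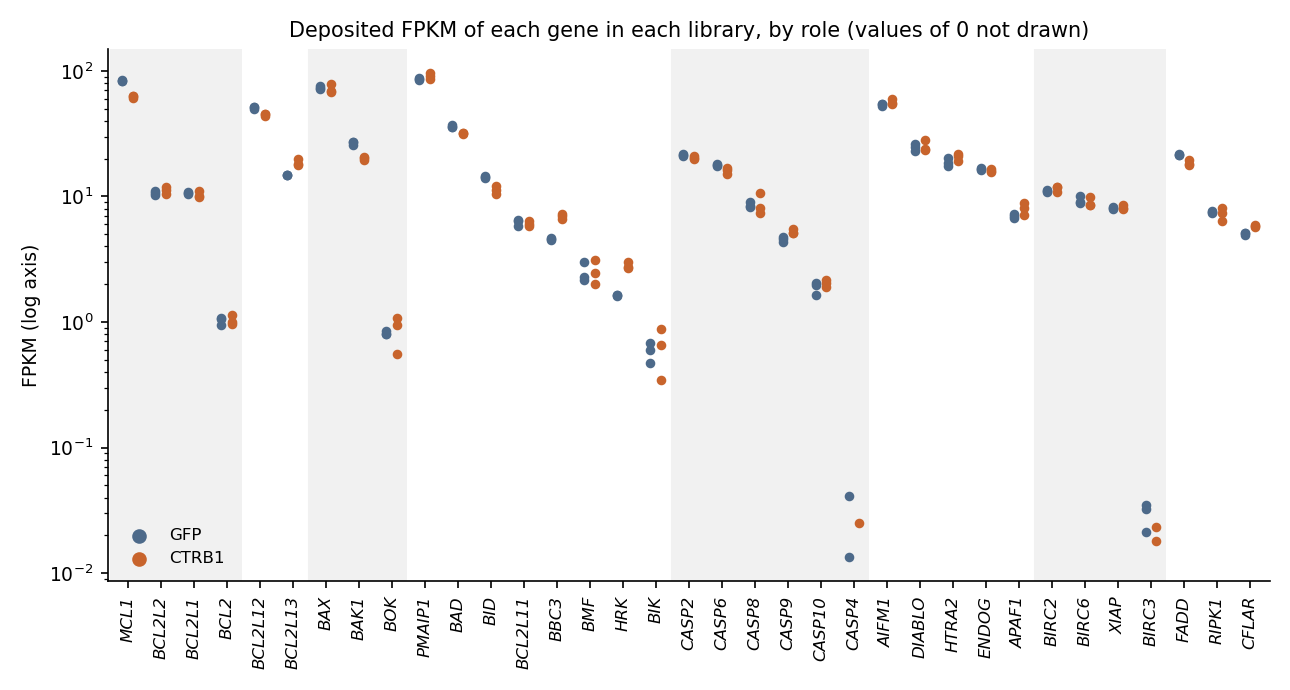
Deposited FPKM (log axis) of each gene in each library, ordered by the GFP mean within each role; blue points are the 3 GFP libraries and orange points the 3 CTRB1 libraries, and libraries listed at 0 are not drawn. MCL1, BAX and PMAIP1 lead their roles, at 61.1 to 95.5 FPKM, while HRK lies at 1.61 to 3.01 FPKM.

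Among the caspase members, CASP9 was higher and the other 4 tested genes were not called. That is 20% called, against 37.4% of all genes tested. CASP9 encodes the initiator caspase of the apoptosome. It had 12.6, 13.3 and 14.1 CPM in GFP cells and 16.2, 15.5 and 16.3 CPM in CTRB1 cells, without overlap. The log2 change was 0.26 ± 0.0738 (SE, n = 3 each) (edgeR adjusted p = 0.0183). The call was lost without GFP replicate 2 (log2 change 0.25; edgeR adjusted p = 0.0626). It was lost as well by limma on log2(FPKM + 1), where the difference was 0.17 (limma adjusted p = 0.0525). CASP2, a caspase that the PIDDosome activates, had 104.5 to 107.2 CPM in GFP cells and 99.6 to 104.0 CPM in CTRB1 cells. CASP2 had a log2 change of -0.06 (95% interval -0.12 to -0.00412; edgeR adjusted p = 0.0867). CASP6, an executioner caspase, had a log2 change of -0.13 (95% interval -0.25 to -0.01; edgeR adjusted p = 0.0768). Without CTRB1 replicate 2 it was -0.17 and CASP6 was called lower (edgeR adjusted p = 0.0438). Without CTRB1 replicate 3 it was -0.085 and CASP6 was not called (edgeR adjusted p = 0.2). The groups did not overlap for CASP2 and CASP6, although neither was called. Such separation was seen for 50% of all genes tested.

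CASP8 and CASP10, the initiator caspases of death receptors, were also not called. CASP8 had 25.1, 25.8 and 26.1 CPM in GFP cells and 22.7, 25.6 and 23.1 CPM in CTRB1 cells, a log2 change of -0.11 (95% interval -0.24 to 0.02). Without CTRB1 replicate 2 it was -0.17 and called lower (edgeR adjusted p = 0.0363). Without CTRB1 replicate 1 it was -0.076 and not called (edgeR adjusted p = 0.373). By limma on log2(FPKM + 1) it was 0.01, so its sign depends on the unit. CASP10 had a log2 change of 0.07 (95% interval -0.12 to 0.25; edgeR adjusted p = 0.567). The inflammatory caspase genes did not pass the filter: CASP1 had no count in any library, and CASP4 had 0, 11 and 8 counts in GFP cells and 0, 0 and 4 in CTRB1 cells. A count of 0 allows up to 3 counts, which is 0.0188 CPM in the deepest library and 0.109 CPM in the shallowest, for counting error only.

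APAF1, DIABLO, HTRA2, AIFM1 and ENDOG, which act in the apoptosome or are released from mitochondria, were not called, nor were the IAP members XIAP, BIRC2 and BIRC6. AIFM1, which encodes the flavoprotein AIF of the mitochondrial intermembrane space, came closest. It had 143, 141 and 140.1 CPM in GFP cells and 157, 144 and 148 CPM in CTRB1 cells, with every CTRB1 library above every GFP library. The log2 change was 0.08 ± 0.0306 (SE, n = 3 each; edgeR adjusted p = 0.0516). DESeq2 called it higher (adjusted p = 0.0421), as did edgeR without CTRB1 replicate 2 (log2 change 0.11, edgeR adjusted p = 0.0163). AIFM1 was not called by limma on log2(FPKM + 1) (limma adjusted p = 0.228), and by FPKM the groups overlapped. It was also not called without the filter (edgeR adjusted p = 0.0859) or without GFP replicate 3 (edgeR adjusted p = 0.156). APAF1, the scaffold of the apoptosome, had a log2 change of 0.08 (95% interval -0.01 to 0.18). Without CTRB1 replicate 2 it was 0.13 and called (edgeR adjusted p = 0.0329). Without CTRB1 replicate 3 it was 0.044 and not called (edgeR adjusted p = 0.431). DIABLO and HTRA2, whose proteins relieve the inhibition by IAPs, had log2 changes of 0.04 (95% interval -0.09 to 0.17) and 0.06 (95% interval -0.04 to 0.16). Exons of AUP1 and LOXL3 on the opposite strand cover 16.1% and 20.8% of the exon bases of HTRA2. For DIABLO, B3GNT4 on the opposite strand covers 14.3% and AC048338.1 on the same strand 16.8%. ENDOG, the gene of a mitochondrial nuclease, had a log2 change of -0.02 (95% interval -0.14 to 0.09), and exons of SPOUT1 on the opposite strand cover 39.2% of its exon bases.

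XIAP, which inhibits caspases directly, had 79.1, 75.7 and 79.4 CPM in GFP cells and 83.8, 79.3 and 79.6 CPM in CTRB1 cells, a log2 change of 0.05 (95% interval -0.02 to 0.12; edgeR adjusted p = 0.246). BIRC2, the gene of the ubiquitin ligase cIAP1, had a log2 change of 0.08 (95% interval -0.01 to 0.17). Every CTRB1 library was above every GFP library for BIRC2, and without CTRB1 replicate 3 the change was 0.11 and called (edgeR adjusted p = 0.0432). Without CTRB1 replicate 2 it was 0.052 and not called (edgeR adjusted p = 0.349). BIRC6, a very large IAP that is also a ubiquitin-conjugating enzyme, had a log2 change of 0.05 (95% interval -0.03 to 0.13), and of -0.04 by limma on log2(FPKM + 1). BIRC3, the gene of cIAP2, did not pass the filter, with 11, 6 and 20 counts in GFP cells and 5, 0 and 3 in CTRB1 cells. The 3 IAP members that passed the filter each took 28.4 to 40.4% of the IAP members' summed FPKM on average in both groups. Among the members, that is a more even division than that of the anti-apoptotic BCL2 genes. BIRC5 and NAIP, IAP genes outside the members, are not in that sum. BIRC5 alone had a mean FPKM of 74.1 in GFP cells and 69.2 in CTRB1 cells, against 28.5 and 28.8 for the sum. With BIRC5 counted, the division would not be even.

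In the death receptor complex CFLAR was higher, FADD was lower and RIPK1 was not called. CFLAR encodes FLIP, a caspase-8 homologue without protease activity. It had 35.1, 35.3 and 35.1 CPM in GFP cells and 38.5, 40.1 and 39.5 CPM in CTRB1 cells, a log2 change of 0.16 ± 0.0414 (SE, n = 3 each) and an adjusted p of 0.0105 by edgeR. The groups did not overlap, but the call was lost without GFP replicate 1 (log2 change 0.16; edgeR adjusted p = 0.0555). FADD, the adaptor between receptors and caspase-8, had 45.8, 45.5 and 46.7 CPM against 41.8, 39.2 and 38.6 CPM in CTRB1 cells. Its log2 change was -0.21 ± 0.0441 (SE, n = 3 each; edgeR adjusted p = 0.00406). An antisense gene, AP000879.1, covers 54.9% of the exon bases of FADD and was not analysed here, so reads from either strand may have entered the count. RIPK1, a kinase of the same complex, had a log2 change of -0.03 (95% interval -0.17 to 0.11; edgeR adjusted p = 0.738).

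**Figure D3:**
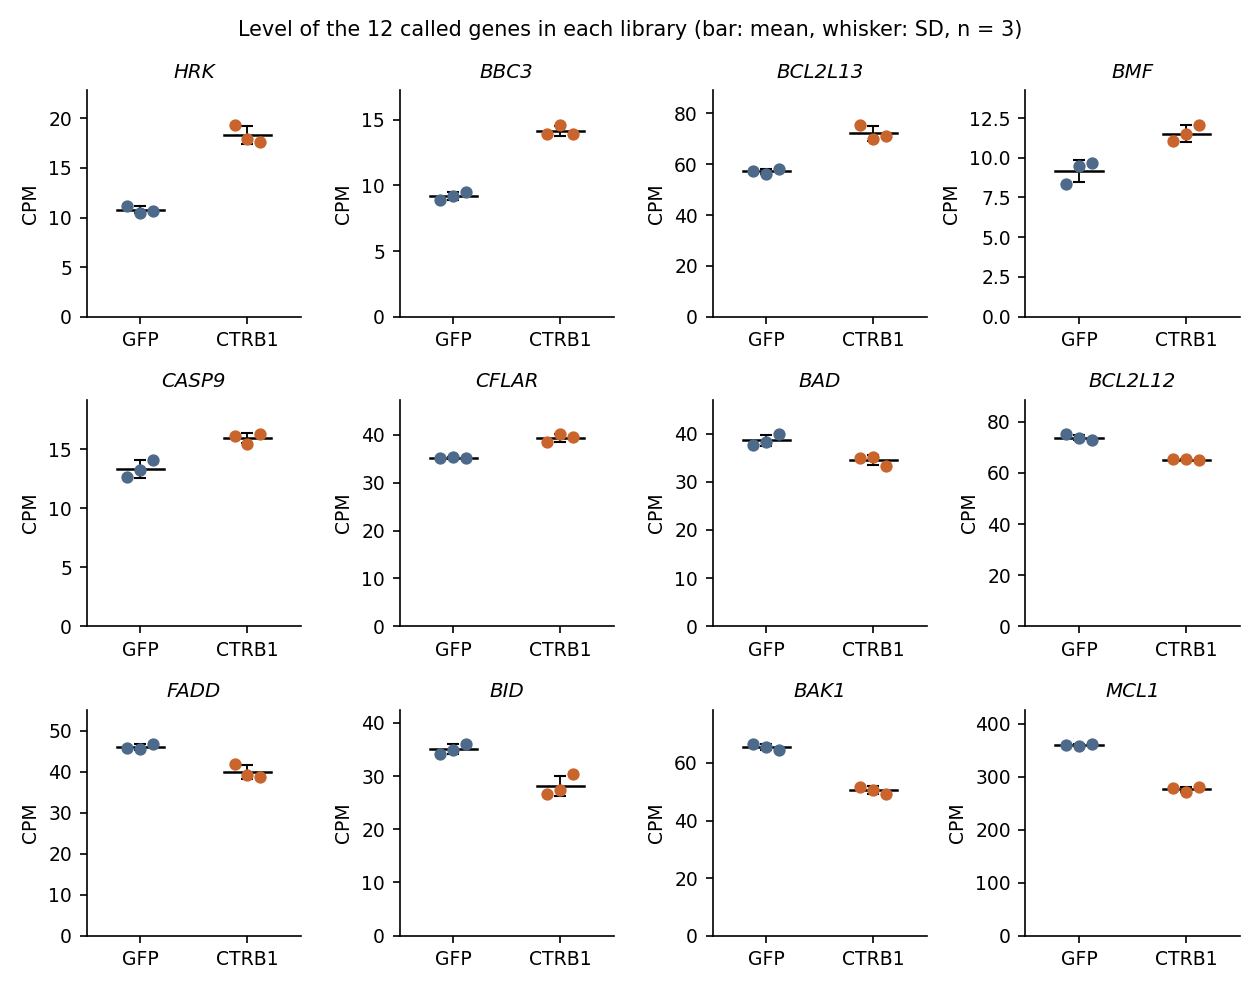
CPM of the 12 called genes in each of the 6 libraries, ordered from the largest rise to the largest fall; blue points are GFP libraries, orange points CTRB1 libraries, bars are means and whiskers SDs (n = 3). In every panel the 3 libraries of one group lie above the 3 of the other. The genes were chosen by their calls on these same libraries, so this separation is not separate evidence. Over all genes tested, the groups did not overlap for 50%. The widest relative gap is that of HRK (10.5 to 11.1 against 17.6 to 19.3 CPM).

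Several members are neighbours on a chromosome, with no other gene of the table between them. BCL2L13 and BID lie 3517 bases apart on chromosome 22, where BCL2L13 was higher and BID was lower. CFLAR, CASP10 and CASP8 follow each other on chromosome 2, with gaps of 6193 and 4036 bases, and had log2 changes of 0.16, 0.07 and -0.11, of which that of CFLAR was called. BIRC3 and BIRC2 lie 7807 bases apart on chromosome 11, BIRC2 with 47.4 to 52.3 CPM over the 6 libraries and BIRC3 with 0.211 CPM at most.

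The count and FPKM columns gave the same sign for 29 of the 31 tested members, CASP8 and BIRC6 being the exceptions. The plot of both changes shows BMF apart from the others. The authors' deposited table, which gives its own log2 fold change and adjusted p per gene, has an adjusted p under 0.05 for the same 12 members, and for 30.6% of the 14158 genes that have one. The authors' deposited table also marks genes as up or down, 3.3% of the 17967 with a mark; HRK and BBC3 are marked up there, and no other member is marked. In the authors' deposited table HRK has a log2 fold change of 0.77 and MCL1 one of -0.38, and for no tested member did it differ from the edgeR value by more than 0.00561.

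**Figure D4:**
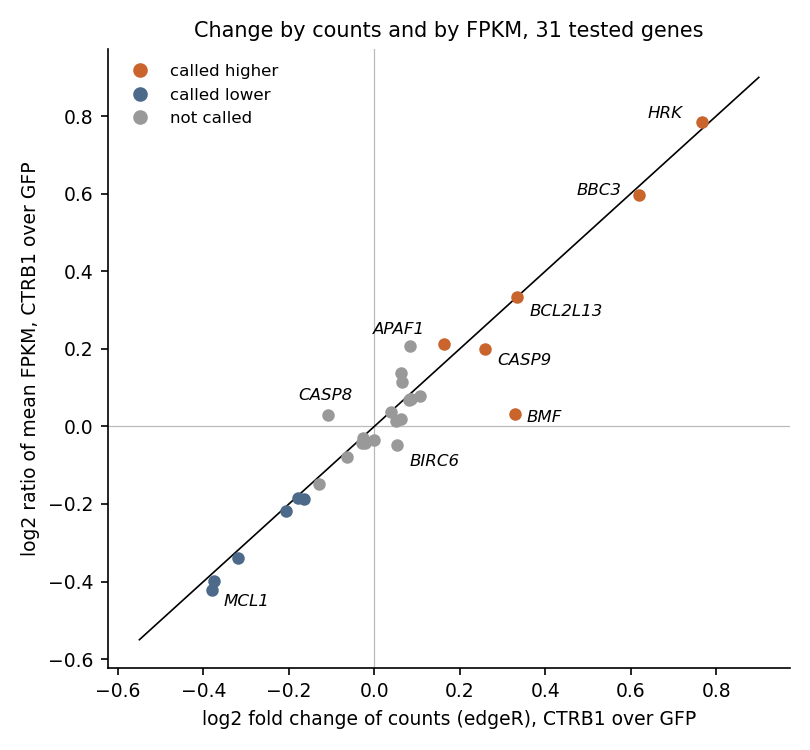
Log2 fold change of counts from edgeR (x axis) against the log2 ratio of mean FPKM (y axis), CTRB1 over GFP cells, 1 point for each of the 31 tested genes, with the line of equality. BMF lies below the line, at 0.33 by counts and 0.03 by FPKM.

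Beyond the members, a list of 63 other genes of cell death was followed, of which 47 passed the filter. This list too was drawn up with earlier results of these data known, so its called shares are not independent of these data. Of these, 9 were higher and 13 were lower, 46.8% against the 37.4% of all genes tested, with a median log2 change of -0.000194. None of the 6 tested death receptor genes was called. Among 11 tested genes of BCL2-interacting and mitochondrial proteins, 1 was higher and 6 were lower, against 18.6% and 18.9% of all genes tested. CYCS, the gene of cytochrome c, had 379 ± 5.92 CPM in GFP cells and 310.2 ± 3.62 CPM in CTRB1 cells (SD, n = 3 each), a log2 change of -0.29 with an edgeR adjusted p of 7.01e-06. BCAP31, of the endoplasmic reticulum, and VDAC3, a channel of the outer mitochondrial membrane, had log2 changes of -0.26 and -0.20. BNIP3L, a mitophagy receptor gene, rose by 0.24 on the log2 scale.

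Among other IAP genes, NAIP was higher (log2 change 0.31) and BIRC5, the gene of survivin, was lower (log2 change -0.09). The next counts stand beside 18.6% higher and 18.9% lower over all genes tested. Of 6 tested adaptors, PIDD1, which assembles the platform that activates caspase-2, was higher (0.21) and TRAF2, an adaptor of tumour necrosis factor receptors, was lower (-0.18). Of 8 tested caspase substrates and nucleases, DFFA, the inhibitor of the apoptotic DNase, and PARP1, a DNA repair enzyme that caspases cleave, were lower (-0.19 and -0.08). Of 12 upstream regulators, 6 were higher and 2 were lower, 66.7% called against 37.4% of all genes. These regulators were listed with earlier results of these data known, which may have raised that share. ATF4, DDIT3 and TRIB3, of the integrated stress response, had log2 changes of 0.50, 0.50 and 0.51, and JUN and E2F1 had log2 changes of -0.41 and -0.20. The edgeR adjusted p of these named genes was 0.0465 for PARP1 and at most 0.0227 for the rest.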

How the data were processed

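RNA of 6 HEK 293FT samples was sequenced. Read counts per gene, which the authors deposited without normalization, were the main values; the deposited FPKM were used for levels and as an alternative, and the deposited TPM, the authors' own scaling of the same data, were not tested. The authors' deposited log2 fold change and p-value columns name no tool, and the deposited group means of counts, recorded as a signal since they need not be whole, were not used. Per the submitters' processing notes, cutadapt 1.9.1, HISAT2 2.2.1 and HTSeq 0.6.1 were used, without stated roles; the notes name the mouse build GRCm38.p5, but all gene identifiers are human, and no source used here names the build behind the coordinates. Whether counting used strand is not stated.

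Counts were tested with edgeR 4.0.16 in R 4.3.3 (quasi-likelihood test, TMM factors 0.9964 to 1.0036, no covariates) over the 11961 genes with FPKM of at least 1 in at least 3 libraries, with Benjamini-Hochberg adjustment over all of them and a threshold of 0.05. The SE is the log2 change divided by the square root of F. The test was first run on simulated counts with known changes. Exon overlaps and strands come from GENCODE v29, by gene identifier and without combining coordinates. Other settings tried were DESeq2 1.42.0, its size factors within edgeR, other filters, thinned counts, a replicate block, leaving out each library, and limma 3.58.1 on log2(FPKM + 1) and log2(FPKM + 0.1). All members are accounted for by role; of other pathway genes, those called are named, up to 3 each way per role, except 1 that is not reported here. The members and lists were chosen with earlier results of these data known.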

Additional observations from a re-analysis of the deposited data

How the results depend on the processing

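The number of members called was 12. It was 10 to 13 under the alternatives that kept all libraries, and 10 to 17 when each library was left out in turn. The 12 calls were shared with DESeq2, DESeq2 size factors, no filter and thinned counts. Of the 12, 8 (MCL1, BCL2L12, BCL2L13, BAK1, BID, BBC3, HRK and FADD) passed in each of the 14 alternatives in which they were tested; HRK was not tested at a mean FPKM of at least 5. Over all genes the count of 4479 went from 3185 to 4482, and for the other pathway genes the count of 22 went from 17 to 24. Same-numbered libraries of the groups did not deviate together (correlations -0.083, -0.003 and -0.084), so pairing by number was not detected. With 3 libraries per group and labels that are silent on it, these values cannot exclude matched cultures or batches. With the replicate block 13 members were called, AIFM1 being the addition, 4320 genes in all and 24 other pathway genes. Of 429 single-gene values under the alternatives, 394 kept direction and side of the threshold, 8 lost and 11 gained a call, and 16 changed sign, none of them of a called member. The sign changed for BCL2L11 at a mean FPKM of at least 5 (0.0106) and with thinned counts (0.000469), for CASP8 by limma with either pseudocount (0.0139 and 0.0139) and for BIRC6 by limma (-0.0441 and -0.0484); the cause was not tested. Leaving out each library gave ranges across 0 for BCL2 (-0.000821 to 0.121), BCL2L1 (-0.0486 to 0.0147), BAX (-0.0823 to 0.00489), BCL2L11 (-0.0433 to 0.0194), DIABLO (-0.0274 to 0.0729), ENDOG (-0.0542 to 0.000308) and RIPK1 (-0.0798 to 0.0469). The CTRB1 libraries are shallower, which limits the sparse genes BIK, BIRC3, CASP1 and CASP4.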
